A study of Mus musculus with 35 samples.

Results

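The collagen genes of the newborn mouse kidney are described here, as the 44 genes, of 31053 in the count tables, whose symbol reads Col, a number, the letter a and a number. The choice used names and no measured value, and each gene was followed by its Ensembl identifier through 35 libraries of kidneys taken at postnatal day 2. RNA of C57BL/6 mice of both sexes was made into QuantSeq libraries, which read the 3′ ends of transcripts, so that counts were not divided by gene length. A level is given as counts per 1000000 counts on genes (CPM), after scaling of the library sizes, and a difference as a log2 fold change.

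Libraries of 3 crosses were compared, each with its own controls. The Flcn cross held 5 libraries labelled Flcn KO (Flcn flox/flox; Ksp-cre+) and 5 labelled control_Flcn. The Flcn/Tfeb cross held 4 labelled Flcn/Tfeb DKO (floxed Flcn and floxed Tfeb on both alleles, with Ksp-cre+) and 3 labelled control_Flcn_Tfeb. The Flcn/Tfe3 cross held 10 labelled Flcn/Tfe3 DKO (Flcn flox/flox; Ksp-cre+; Tfe3-/-) and 8 labelled control_Flcn_Tfe3. The Flcn controls were Flcn flox/flox per the study's text, and the full genotypes of the other controls are not given in the labels. Ksp-cre, driven by the Cdh16 promoter, acts in collecting duct, distal tubule and thick ascending limb, whereas the Tfe3 allele is a null in every cell. The first pair of crosses, deposited as single files, makes up set A. The cross with Tfe3 was deposited in 2 tables, named set B (controls 1 to 3, DKO 1 to 6) and set C (controls 4 to 8, DKO 7 to 10) here.

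Collagens are made of 3 chains wound into a triple helix. Fibrillar collagens form the banded fibres of connective tissue and come mainly from fibroblasts and other stromal cells. Type IV collagen forms the network of basement membranes under tubules and around glomerular capillaries, from the chain sets α1α1α2, α3α4α5 and α5α5α6, and mutations of the α3, α4 or α5 chain cause Alport syndrome.

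Counts on genes ranged from 1652649 to 4239356 per library, so that a count of 0 allows up to 3 counts, or 0.639 to 2.09 CPM (counting error only). Among the targeted genes, Flcn was 13.9 ± 2.26 CPM in control_Flcn and 15.1 ± 3.25 CPM in Flcn KO (SD, n = 5 each). Tfeb was 11.96 ± 6.67 CPM in control_Flcn_Tfeb (n = 3) and 7.47 ± 0.680 CPM in Flcn/Tfeb DKO (n = 4), with overlap. Tfe3 had 21 ± 5.05 (control) and 19.5 ± 4.68 CPM (DKO) in set B and 18.2 ± 0.674 and 17.1 ± 1.45 CPM in set C, also with overlap. Controls of these sets (15.3 to 24.8 and 17.5 to 19.0 CPM) lay below those of set A. There Tfe3 was 27.0 to 39.5 CPM in control_Flcn and 29.6 to 43.2 CPM in control_Flcn_Tfeb. The Tfe3 genotype of the Flcn/Tfe3 controls is not given, and cross and table cannot be told apart here. Reads of the 3′ end need not cover what an allele removes, and the labels were not checked by these counts. Summed markers of the adrenal gland exceeded 50 CPM in 7 libraries (99.2 to 258 CPM) and those of skeletal muscle in 6 (65.7 to 200 CPM). Markers of stroma (401 to 705 CPM) and podocytes (339 to 598 CPM) were present in every library.

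Type I collagen led the set. Col1a2, its α2 chain, had the highest mean level at 1249 ± 383 CPM (SD, n = 35), from 698 CPM in the lowest library to 2035 CPM in the highest. Col3a1, the chain of type III collagen that shares fibrils with type I, followed at 849 ± 161 CPM. Col1a1, the α1 chain of type I, had 707 ± 184 CPM and Col4a1, the main basement membrane chain, 678 ± 146 CPM. These last 2 genes were not ordered, as Col1a1 was the higher in 14 of the 35 libraries. Col4a2 stood at 357 ± 117 CPM and Col18a1, a proteoglycan collagen of basement membranes, at 211 ± 33.1 CPM. In bulk RNA, fewer cells of a type and less RNA per cell cannot be told apart.

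Below these, 6 genes lay close together, from Col4a4 at 90.6 ± 21.6 CPM to Col16a1 at 75.7 ± 17.4 CPM, with Col15a1, Col6a2, Col6a3 and Col5a1 between them. Their SDs overlap. Means of at least 1 CPM were reached by 36 of the 44 genes, of at least 10 CPM by 25 and of at least 100 CPM by 7. Every library held a count for 29 genes, and 15 genes were at 0 in at least 1 library. The 8 genes under 1 CPM were Col9a3, Col20a1, Col11a2, Col17a1, Col22a1, Col28a1, Col19a1 and Col10a1. Col10a1, the collagen of hypertrophic cartilage, was at 0 in 34 libraries, Col28a1 in 28 and Col19a1 in 27, and at this depth their absence is not shown.

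**Figure D1:**
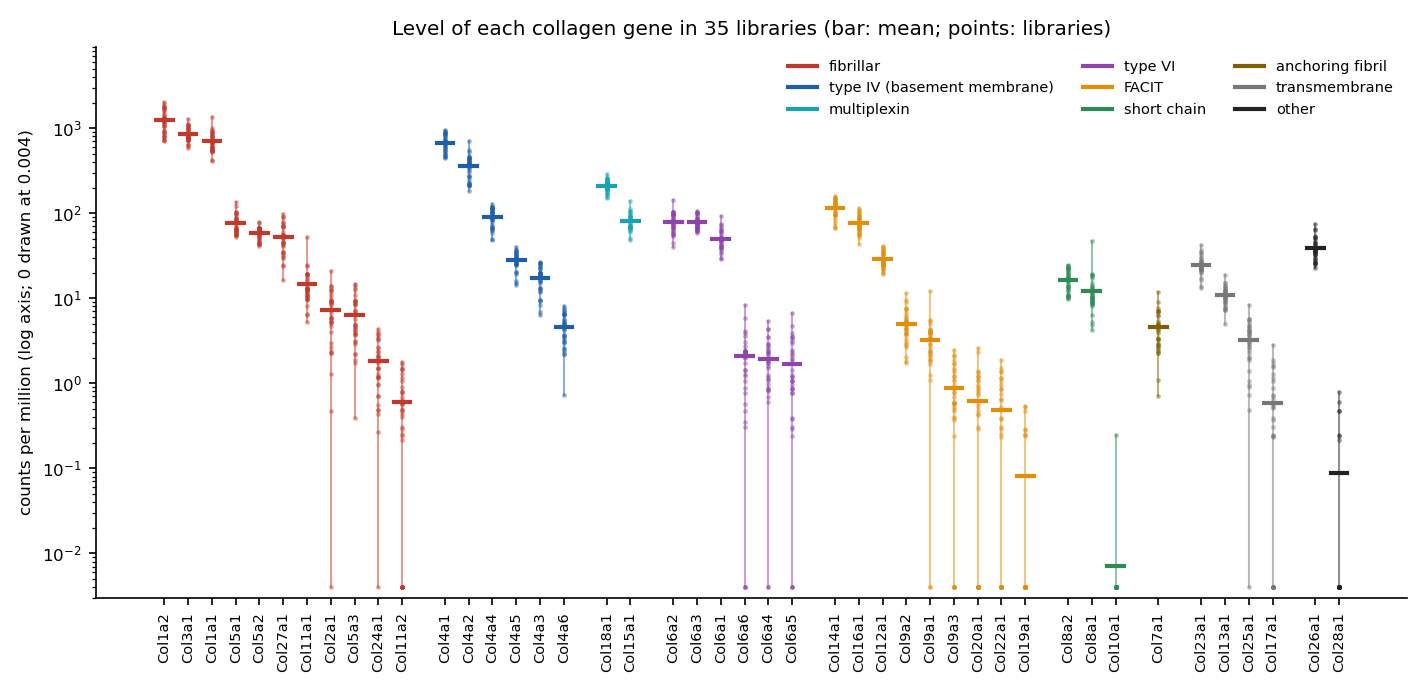
Level of each of the 44 collagen genes in CPM on a log axis, ordered within classes by mean (points: the 35 libraries, bar: mean; a value of 0 is drawn at 0.004). Col1a2, Col3a1, Col1a1 and Col4a1 lie highest, and the 8 genes with means under 1 CPM come last in their classes.

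By class, the 11 fibrillar genes gave 59.7 ± 4.81% of all collagen counts and the 6 type IV genes 23.3 ± 3.95% (SD, n = 35). All collagens together were 0.511 ± 0.115% of counts on genes. Col1a1, Col1a2 and Col3a1 alone gave 55.4 ± 4.81% of collagen counts, and Col4a1 with Col4a2 gave 87.8 ± 2.05% of type IV counts. The multiplexins Col15a1 and Col18a1 held 5.84 ± 0.789% and the FACIT collagens, which sit on fibril surfaces, 4.66 ± 0.802%. Type VI collagens, which form beaded microfilaments around cells, held 4.24 ± 0.389%. The transmembrane, short chain and anchoring fibril collagens had 0.803 ± 0.226%, 0.559 ± 0.132% and 0.0949 ± 0.0585%.

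Smaller classes were led by Col14a1 (116 ± 25.4 CPM) among the FACIT collagens, Col23a1 (24.8 ± 6.06 CPM) and Col13a1 (10.8 ± 2.72 CPM) among the transmembrane collagens, and Col8a2 (16.4 ± 4.75 CPM) among the short chain collagens. Col7a1, which builds the anchoring fibrils of skin, had a mean of 4.54 CPM. Col26a1, which belongs to no class here, had 39.3 ± 12.3 CPM.

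The type IV genes lie in head-to-head pairs (GRCm38, GENCODE M21). Col4a1 (chr8:11198423-11312826, minus strand) and Col4a2 (chr8:11312805-11449287, plus strand) start 21 bases apart, and their first exons overlap on opposite strands. Col4a3 (chr1:82586921-82722059, plus strand) and Col4a4 (chr1:82448423-82586849, minus strand) start 72 bases apart. Col4a5 (chrX:141475385-141689234, plus strand) and Col4a6 (chrX:141165403-141474076, minus strand) start 1309 bases apart. Among the collagens, the last 500 bases of Col4a3, Col9a3 and Col10a1 overlap a gene of the other strand. The strand setting of the counting is not given in the sources used here, so reads of such genes may be shared.

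Promoter windows of RefSeq (GRCm38.p6, 250 bases before to 50 after a start) are printed for Col1a2, the most abundant collagen, and the pair Col4a1 and Col4a2. Windows are also printed for Col4a5 and Col5a1. These genes had the smallest collagen p of the Flcn/Tfeb and the Flcn cross, in that order, and neither was called there. The windows lie at chr6:4505368-4505667 (Col1a2, plus strand), chr8:11312777-11313076 (Col4a1, minus strand), chr8:11312555-11312854 (Col4a2, plus strand), chrX:141475169-141475468 (Col4a5, plus strand) and chr2:27886175-27886474 (Col5a1, plus strand). Capitals mark CCAAT and GGGCGG, or ATTGG and CCGCCC where the match is on the other strand.
Col1a2: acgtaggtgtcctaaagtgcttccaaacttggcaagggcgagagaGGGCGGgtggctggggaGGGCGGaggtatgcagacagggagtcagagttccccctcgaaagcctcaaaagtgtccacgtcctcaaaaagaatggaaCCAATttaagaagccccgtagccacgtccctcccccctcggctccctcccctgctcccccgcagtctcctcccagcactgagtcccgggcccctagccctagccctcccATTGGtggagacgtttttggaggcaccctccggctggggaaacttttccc
Col4a1: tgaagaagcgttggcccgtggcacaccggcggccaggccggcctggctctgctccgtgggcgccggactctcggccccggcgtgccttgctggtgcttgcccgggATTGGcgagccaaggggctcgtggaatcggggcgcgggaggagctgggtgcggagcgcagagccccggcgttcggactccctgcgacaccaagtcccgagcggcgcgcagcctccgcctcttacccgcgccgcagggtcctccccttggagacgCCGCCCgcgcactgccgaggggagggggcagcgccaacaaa
Col4a2: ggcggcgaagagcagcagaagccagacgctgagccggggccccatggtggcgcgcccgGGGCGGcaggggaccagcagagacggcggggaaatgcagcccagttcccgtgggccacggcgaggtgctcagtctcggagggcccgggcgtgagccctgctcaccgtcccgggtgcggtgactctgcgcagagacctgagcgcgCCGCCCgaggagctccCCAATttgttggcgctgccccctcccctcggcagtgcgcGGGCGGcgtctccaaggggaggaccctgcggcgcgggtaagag
Col4a5: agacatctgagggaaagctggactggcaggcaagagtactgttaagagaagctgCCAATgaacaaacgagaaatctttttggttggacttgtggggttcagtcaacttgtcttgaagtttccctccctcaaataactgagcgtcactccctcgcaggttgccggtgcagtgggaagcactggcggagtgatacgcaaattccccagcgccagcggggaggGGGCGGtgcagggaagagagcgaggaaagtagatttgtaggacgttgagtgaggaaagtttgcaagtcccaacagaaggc
Col5a1: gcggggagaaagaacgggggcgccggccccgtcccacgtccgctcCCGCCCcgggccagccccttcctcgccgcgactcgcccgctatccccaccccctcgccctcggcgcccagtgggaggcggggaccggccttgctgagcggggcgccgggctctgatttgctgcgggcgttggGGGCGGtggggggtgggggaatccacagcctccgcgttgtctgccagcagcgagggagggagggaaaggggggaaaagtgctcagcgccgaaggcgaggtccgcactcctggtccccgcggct

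The windows of Col4a1 and Col4a2 cover the same bases where they meet, on opposite strands. RefSeq held windows for 35 of the 44 genes. The letters CACGTG, an E-box that TFEB and TFE3 bind and that reads alike on both strands, were in 0 of these 35 genes and in 7.15% of the 32851 windows of the table. CCAAT was in 13 of the 35 (37.4% of all windows), GGGCGG in 22 (35.7%) and TATAAA, or TTTATA on the other strand, in 5 (13.6%). Such matches describe these windows only.

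Partner chains were measured at unequal levels. Col1a1 was below Col1a2 in 35 of 35 libraries, with 0.546 as the ratio of summed counts (0.357 to 0.894 by library), although the type I helix holds more α1 than α2 chains. Col4a1 was above Col4a2 in 35 of 35, with a ratio of 1.88 (1.33 to 3.15). Col4a3 was below Col4a4 in 35 of 35, at 0.188 (0.0689 to 0.370). Col4a5 was above Col4a6 in 35 of 35, at 6.42 (2.20 to 33.5). The ratio of 33.5, in Flcn KO replicate 3, rests on 2 counts of Col4a6. The counts are of 3′ ends, whose yield can differ between genes.

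Among the pairs, Col4a1 and Col4a2 had the highest correlation. Within groups and sets (35 libraries, 27 residual degrees of freedom), the correlation of their log2 CPM was 0.93. It was 0.82 for Col1a1 with Col1a2, 0.65 for Col5a1 with Col5a2 and 0.61 for Col6a1 with Col6a2. It was 0.12 for Col6a1 with Col6a3, chains of the same type VI filament, and 0.38 for Col8a1 with Col8a2. It was 0.34 for Col4a3 with Col4a4, 0.21 for Col4a3 with Col4a5 and 0.013 for Col4a5 with Col4a6. Col3a1 and Col1a2 had -0.0078. These are descriptions over libraries that share their depth scaling. Col4a6 had 2 to 25 counts per library and Col4a3 19 to 88, against at least 313 for Col4a2. Counting error is larger at few counts and lowers a correlation, so these values do not rank how closely the pairs vary.

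**Figure D2:**
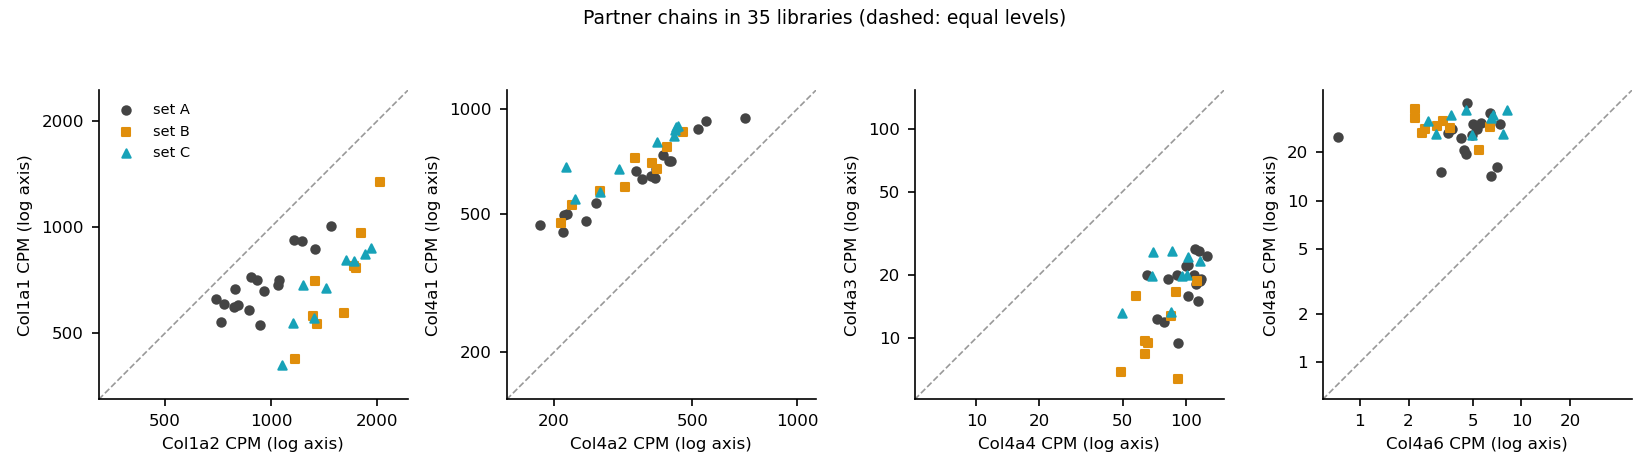
Levels of 4 pairs of partner chains against each other in CPM on log axes (points: the 35 libraries by set, dashed line: equal levels). Col4a1 and Col4a2 form a narrow band above the line, and every library has Col1a1 below Col1a2.

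The type I ratio differed between set A and set C, whose libraries did not overlap, while those of set B overlapped both. The log2 ratio of Col1a1 to Col1a2 was -0.45 ± 0.13 (SD, n = 5) in control_Flcn and -0.41 ± 0.14 (n = 3) in control_Flcn_Tfeb. Set B controls had -0.89 ± 0.27 (n = 3) and set C controls -1.14 ± 0.21 (n = 5). Col1a2 was 1039 ± 228 and 999 ± 416 CPM in the former and 1694 ± 352 and 1299 ± 250 CPM in the latter. Cross and table cannot be told apart here, so each knockout was read against controls of its own cross.

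The balance of fibrillar to basement membrane collagen was taken in each library as log2 of the summed fibrillar over the summed type IV counts. It was 1.34 ± 0.37 over the 16 controls, and the ratios themselves had a mean of 2.60 ± 0.693. In the Flcn cross the controls had 1.203, 0.98, 0.99, 1.06 and 0.86 and the Flcn KO libraries 1.04, 0.90, 0.93, 1.04 and 1.06. The groups overlapped, with means of 1.02 ± 0.13 and 0.9957 ± 0.074 (SD, n = 5 each) and a difference of -0.023.

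In the Flcn/Tfeb cross the controls had 1.72, 1.48 and 0.85 and the DKO libraries 1.82, 2.27, 1.497 and 1.299. The means were 1.35 ± 0.45 (n = 3) and 1.72 ± 0.42 (n = 4), and the groups overlapped. The difference of 0.37 was 0.12 without control replicate 3, the lowest library, and 0.69 without the 2 DKO libraries over 50 CPM of skeletal muscle markers, where both DKO libraries that remain lie above each control. In the Flcn/Tfe3 cross the ratio was 1.68 ± 0.47 (control, n = 3) and 1.63 ± 0.29 (DKO, n = 6) in set B. In set C it was 1.44 ± 0.22 (n = 5) and 1.28 ± 0.095 (n = 4). The groups overlapped in both sets, and the weighted difference was -0.10. The SD within groups was 0.10, 0.43 and 0.28 in the 3 crosses, larger than the difference over all libraries in each.

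**Figure D3:**
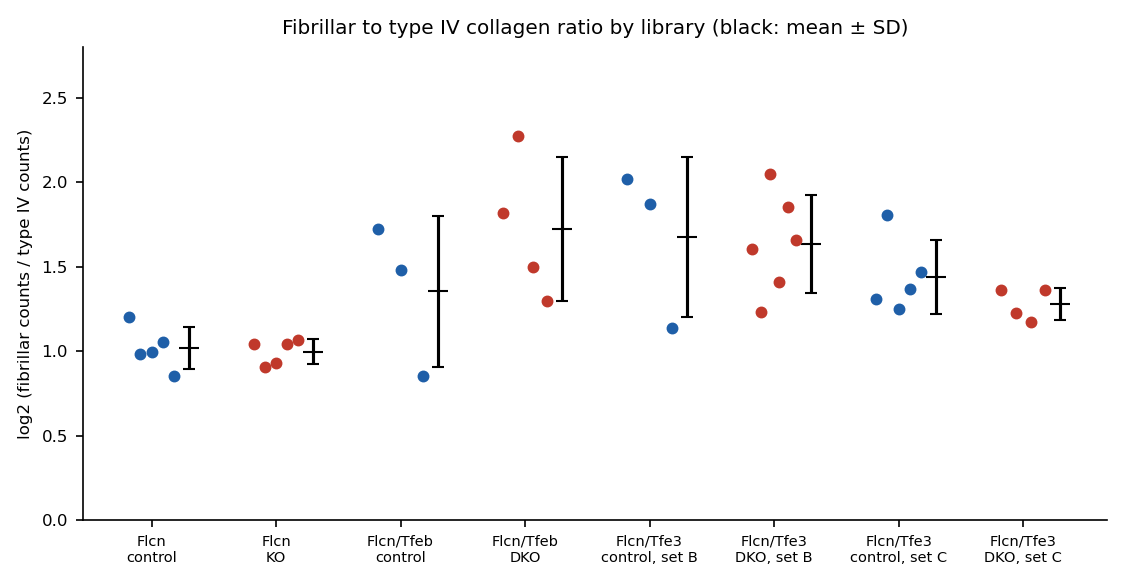
Log2 ratio of fibrillar to type IV collagen counts in each library (points), with mean and SD beside them, for controls (blue) and knockouts (red). The groups overlap in each cross, and the groups of the Flcn cross are the narrowest of set A.

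Collagens as a share of all counts were 0.5258 ± 0.103% in control_Flcn and 0.445 ± 0.0297% in Flcn KO, and 0.4927 ± 0.210% and 0.406 ± 0.0715% in the Flcn/Tfeb cross. In set B it was 0.629 ± 0.0984% in controls and 0.555 ± 0.0943% in DKO. In set C it was 0.446 ± 0.0959% and 0.620 ± 0.0534%, the other way round. The groups overlapped in each of these comparisons.

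In the Flcn cross 0 of the 30 collagens that passed the filter on low counts were called at an adjusted p under 0.05 (edgeR quasi-likelihood test, Benjamini-Hochberg), beside 0.52% of 11932 genes. DESeq2 called 0 as well. At an unadjusted p under 0.05 edgeR had 1 collagen, beside 9.07% of all genes, and 0 collagens had groups that did not overlap, beside 2.38%. The fitted differences lay mostly on one side, with 27 of the 30 below 0 and a median of -0.20, beside 6149 of 11932 genes and a median of -0.0074. They came to 8 of 9 fibrillar, 6 of 6 type IV and 4 of 4 FACIT genes. The genes share their libraries, and with each library left out in turn 22 to 29 were below 0. Controls 4 and 5 stood apart in quality, with 10.96% and 9.06% of reads on no feature against 12.9 to 18.1% in the other 8 libraries, and held the highest collagen shares (0.651 and 0.620%) and TMM scaling factors (1.13 and 1.10) of the cross. Without this pair 21 of 29 collagens were below 0 and the median was -0.091, with 0 called. Values over all genes in that fit are not given here. The pair was chosen after seeing the data, and the part of library quality in these values was not tested.

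Col5a1, a minor chain that starts fibrils, had the smallest p. Its controls had 97.6, 66.4, 78.1, 102 and 85.4 CPM and the Flcn KO libraries 67.0, 63.4, 77.7, 65.2 and 75.7 CPM. The groups overlapped, and the log2 fold change was -0.30 ± 0.13 (SE; adjusted p = 0.47, edgeR). Col1a1 had 723, 603, 659, 867 and 912 CPM in controls and 624, 528, 666, 583 and 708 CPM in Flcn KO. Controls 4 and 5 were the highest of the 10 libraries, and the difference was -0.28 ± 0.14 (adjusted p = 0.57), or -0.091 without them. Col12a1, a FACIT collagen, was 30.2 ± 5.70 and 24.6 ± 1.32 CPM (-0.29 ± 0.15; adjusted p = 0.58).

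The more abundant fibrillar genes also overlapped between groups. Col1a2 was 1039 ± 228 CPM in controls and 867 ± 134 CPM in Flcn KO (-0.26 ± 0.16, or -0.022 without controls 4 and 5). Col3a1 was 766 ± 92.4 and 762 ± 76.2 CPM, a difference of -0.0076 with a 95% interval from -0.27 to 0.26.

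Of the basement membrane genes, Col4a1 was 756 ± 134 CPM in controls and 682 ± 41.9 CPM in Flcn KO (-0.15 ± 0.13), and the difference was -0.070 without control 5 and 0.043 without controls 4 and 5. Col4a2 was 454 ± 75.8 and 387 ± 35.1 CPM (-0.23 ± 0.13, or -0.051 without controls 4 and 5). The chains of the glomerular network were Col4a3 at 22.4 ± 2.96 and 19.5 ± 4.78 CPM, Col4a4 at 115 ± 9.22 and 108 ± 6.29 CPM, and Col4a5 at 27.6 ± 2.52 and 26.2 ± 3.72 CPM. Col4a6 was 5.36 ± 1.17 and 3.96 ± 1.95 CPM. None of these groups was separate. Summed markers of podocytes were lower in Flcn KO (374 to 462 CPM, controls 477 to 545 CPM, with no marker at 0) and those of stroma overlapped (456 to 572 and 481 to 596 CPM). Their part in the collagen values was not tested.

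In the Flcn/Tfeb cross 0 of 31 collagens were called, as were 0% of 12469 genes (edgeR; DESeq2 also 0 collagens). At an unadjusted p under 0.05 there were 5, beside 5.07% of all genes. The groups did not overlap for 4, beside 5.65%. They were Col4a5 and Col2a1, which were lower in DKO, and Col23a1 and Col27a1, which were higher. Below 0 were 20 of 31, with a median of -0.18, beside 6498 of 12469 and a median of -0.017. Without control replicate 3, 12 of 32 were below 0 and the median was 0.041, with values over all genes in that fit not given here.

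Col4a5, the chain common to the α3α4α5 and α5α5α6 networks, had the smallest p. Its level was 35.02, 26.3 and 40.2 CPM in controls and 15.1, 14.3, 19.4 and 16.1 CPM in DKO libraries. Each control lay above each DKO library, with 45 to 140 counts against 22 to 51. The log2 fold change was -1.07 ± 0.23 (p = 0.00071, adjusted p = 0.80, edgeR), and from -1.22 to -0.91 with each library left out. Podocyte markers were also lower in DKO, at 340 to 409 CPM against 417 to 519 CPM, and their part in the Col4a5 value was not tested.

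The other chains of these networks did not separate. Col4a3 was 19.5 ± 0.672 CPM in controls and 13.2 ± 4.11 CPM in DKO (-0.56 ± 0.28), Col4a4 91.2 ± 25.9 and 81.6 ± 7.96 CPM (-0.18 ± 0.21, or 0.059 without control replicate 3), and Col4a6 4.84 ± 1.47 and 5.33 ± 1.79 CPM (0.12 ± 0.44, or -0.067 without DKO replicate 4). The log2 ratio of Col4a5 to Col4a6 was 2.70 ± 0.32 in controls (n = 3) and 1.57 ± 0.54 in DKO (n = 4), with the groups apart at 2.36 and 2.08. This ratio holds the same Col4a5 values and is no separate evidence, and Col4a6 had 6 to 18 counts in these libraries.

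Control replicate 3 held the highest levels of the common type IV chains. Col4a2 was 183, 218 and 709 CPM in controls and 213, 212, 264 and 247 CPM in DKO. The log2 fold change of -0.68 ± 0.39 was 0.22 without that library and -1.001 at the other end of the left-out fits. Col4a1 was 463, 498 and 944 CPM in controls and 495, 444, 538 and 476 CPM in DKO (-0.39 ± 0.25, or 0.018 without that library). Summed smooth muscle markers in the same library were 838 CPM, and 448 and 472 CPM in the other controls. That library also had the highest endothelial, podocyte and cartilage markers of these controls. It had their lowest stromal, fat and myeloid markers. It also had 9.07% of reads on no feature against 17.8 to 19.9% in the other 6 libraries of the cross, 41.2% of reads not unique against 46.4 to 49.4%, and a TMM factor of 1.16 against 0.880 to 0.935. The part of these measures in the collagen values was not tested.

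Col2a1, the collagen of cartilage, was 5.25, 5.84 and 14.1 CPM in controls and 2.38, 1.29, 2.28 and 5.11 CPM in DKO (-1.61 ± 0.53; adjusted p = 0.80, edgeR). The DKO values rest on 2 to 13 counts, and the difference was -0.94 without control replicate 3. Col23a1, a transmembrane collagen, was 17.5, 27.4 and 23.9 CPM in controls and 29.8, 34.3, 35.02 and 41.7 CPM in DKO (0.60 ± 0.22; adjusted p = 0.80). Col27a1, a fibrillar collagen of cartilage, was 72.4, 77.6 and 52.0 CPM in controls and 79.8, 97.1, 91.4 and 89.7 CPM in DKO (0.41 ± 0.18; adjusted p = 0.80), a difference of 0.24 without control replicate 3. Both had each DKO library above each control.

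Type VI genes lay below 0 together, with 3 of 3 tested and a median of -0.54. Col6a2 was 74.7, 55.5 and 145 CPM in controls and 59.6, 66.7, 53.3 and 39.7 CPM in DKO (-0.77 ± 0.31; adjusted p = 0.80, edgeR), with overlap. Without control replicate 3, the library at 145 CPM, Col6a2 was -0.27 and Col6a1 -0.13. As a share of collagen counts, type VI was 4.97 ± 0.227% in controls and 4.12 ± 0.296% in DKO, and here the groups were apart (4.71 to 5.11% and 3.82 to 4.47%). The share of each class was looked at in every cross, no other had groups apart, and none was tested.

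In the Flcn/Tfe3 cross 0 of 32 collagens were called, beside 0.385% of 12456 genes (edgeR; DESeq2 also 0 collagens). At an unadjusted p under 0.05 there were 5, beside 7.15% of all genes, and 0 had groups that did not overlap, beside 0.128%. The collagens were even about 0, with 17 of 32 below it and a median of -0.0068, beside 5986 of 12456 and a median of 0.0090. Lower in DKO were Col8a1, Col11a1 and Col4a6, and higher were Col15a1 and Col14a1.

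**Figure D4:**
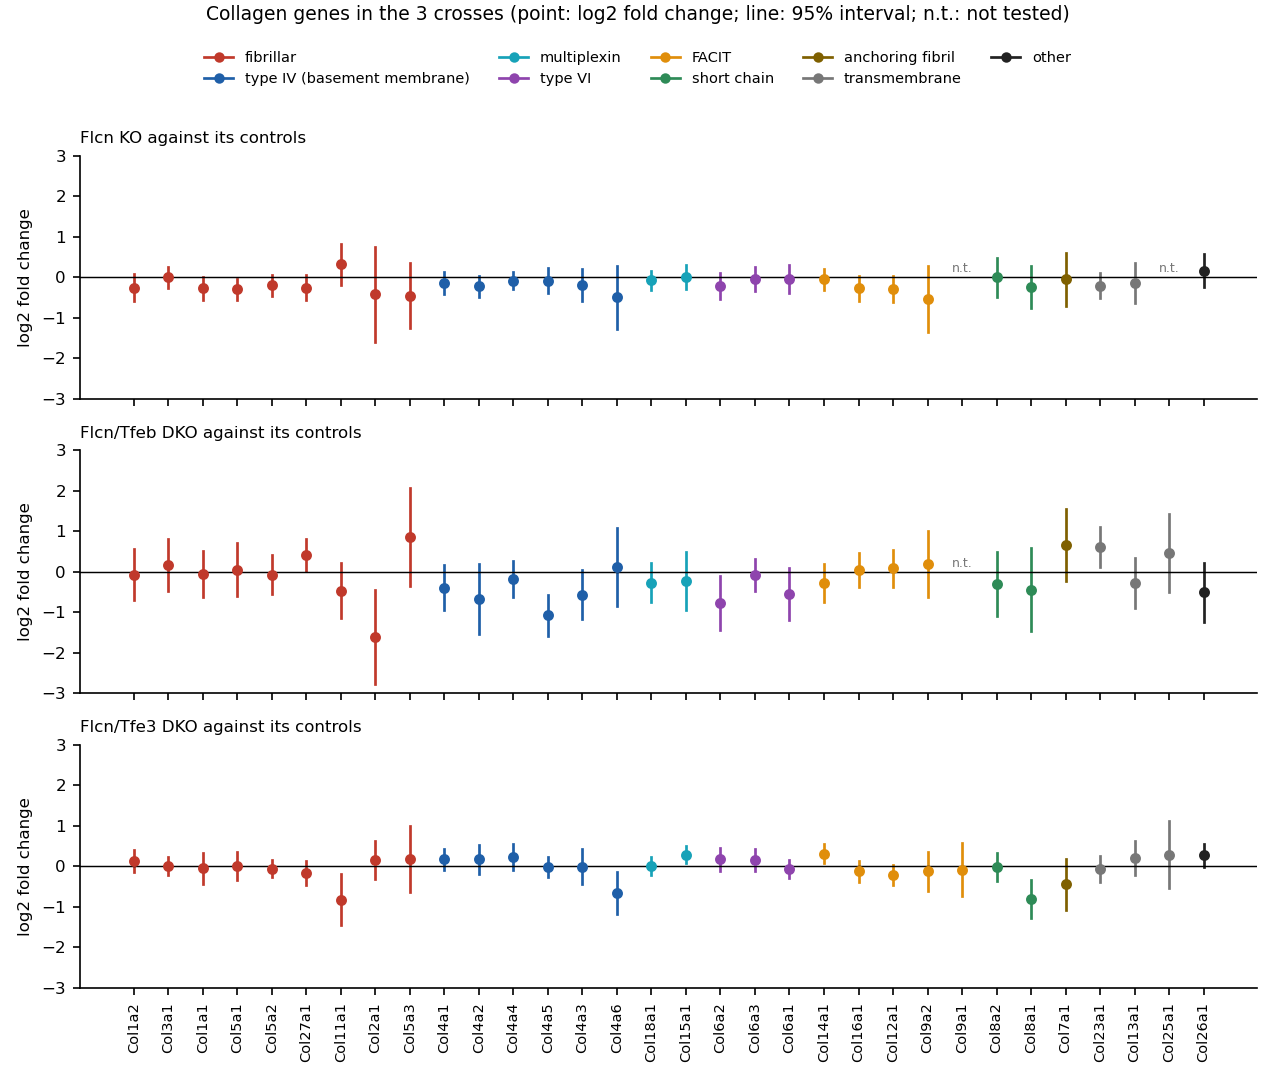
Log2 fold change of each collagen tested in the 3 crosses (points, with 95% intervals as lines, coloured by class; n.t.: not tested). In the Flcn cross 27 of 30 points lie below 0, and Col4a5 and Col2a1 lie lowest in the Flcn/Tfeb cross.

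Col8a1, a short chain collagen of vessels and endothelial membranes, had 47.3, 19.1 and 13.9 CPM in set B controls and 8.76 to 18.5 CPM (median 11.7) in set B DKO. In set C the controls had 8.75, 13.2, 18.7, 15.2 and 17.3 CPM and the DKO libraries 10.98, 12.9, 8.52 and 9.34 CPM. Control replicate 1, the value at 47.3, was far above the others. The log2 fold change was -0.81 ± 0.22 (adjusted p = 0.17, edgeR), -0.45 without that library, and -0.30 without the 5 libraries over 50 CPM of adrenal gland markers. Set B alone gave -1.11 and set C alone -0.51.

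Col11a1, a minor chain of cartilage fibrils, had 52.8, 13.3 and 15.7 CPM in set B controls and 5.24 to 10.0 CPM (median 8.89) in set B DKO, with the groups apart. In set C the groups overlapped, at 12.7, 19.5, 24.7, 10.6 and 10.6 CPM in controls and 15.2, 18.7, 19.5 and 12.6 CPM in DKO. The log2 fold change of -0.82 ± 0.30 (adjusted p = 0.45, edgeR) came to -1.73 within set B and 0.069 within set C. It was -0.28 without control replicate 1, the library at 52.8 CPM, and 0.0023 without the 5 libraries that hold adrenal gland markers.

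Col15a1, a multiplexin of the basement membrane zone, was 68.3 ± 7.93 and 80.3 ± 12.7 CPM in set B and 81.0 ± 6.30 and 101 ± 13.6 CPM in set C (0.29 ± 0.098; adjusted p = 0.39, edgeR). Col14a1 was 107 ± 10.7 and 125 ± 12.3 CPM in set B and 97.3 ± 24.9 and 126 ± 20.1 CPM in set C (0.31 ± 0.12; adjusted p = 0.45). For both genes the sign was the same in both sets. Col4a6 was 4.69 ± 2.22 and 2.85 ± 0.550 CPM in set B and 6.30 ± 2.17 and 4.03 ± 0.907 CPM in set C (-0.66 ± 0.25; adjusted p = 0.47).

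The collagen medians of the 2 tables of the Flcn/Tfe3 cross had opposite signs. In set B alone 23 of 32 collagens were below 0 with a median of -0.19 (0.0023 over all genes), and edgeR called 0 collagens beside 8 of 13191 genes. At an unadjusted p under 0.05 there were 5 collagens, beside 6.56% of genes. In set C alone 10 of 32 were below 0 with a median of 0.14 (-0.0027 over all genes), and 0 collagens were called beside 569 of 12169 genes, with 7 at an unadjusted p under 0.05, beside 21.3% of genes. The difference between them was tested as an interaction. It was called for 1 of 32 collagens, beside 1.3% of 12456 genes, and had an unadjusted p under 0.05 for 8, beside 22.1%. The count of 8 lies near that share over all genes. All 8 were more positive in set C, and 26 of the 32 were above 0 with a median of 0.38, beside 6597 of 12456 and a median of 0.041. In set C the DKO libraries were deeper than the controls (3159884 to 3555791 counts against 1719367 to 2909353), with TMM factors of 1.041 to 1.065 against 0.837 to 1.036 and 7.92 to 10.45% of reads on no feature against 8.78 to 18.4%. Depth and genotype cannot be told apart there. Among the marker lists, 1 of 6 stromal markers was called in the interaction, with a list median of 0.15. It was Tcf21, a transcription factor of kidney stroma that podocytes also express, at -1.29 ± 0.22 (SE, adjusted p = 0.0428, edgeR), the smallest p of the 12456 genes. The medians were 0.80 over 4 nephron progenitor, 0.50 over 4 smooth muscle, 0.43 over 6 podocyte and -1.13 over 3 fat markers, with 0 of these called. The part of these markers in the collagen values was not tested.

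The gene called was Col5a1. In set B it had 135, 88.2 and 60.02 CPM in controls and 52.1 to 84.2 CPM (median 62.9) in DKO. In set C it had 56.0, 86.2, 64.2, 65.4 and 55.3 CPM in controls and 102, 98.0, 80.9 and 90.5 CPM in DKO. The effect came to -0.54 within set B and 0.50 within set C, and the difference was 1.08 ± 0.27 (adjusted p = 0.047, edgeR). It was 0.71 (adjusted p = 0.17) without control replicate 1 and 0.36 (adjusted p = 0.52) without the libraries that hold adrenal gland markers. With each of the 18 libraries left out in turn, the adjusted p was above 0.05 in 14 fits, so the call is at the edge of the threshold.

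Control replicate 1 of set B also led Col1a1 at 1339 CPM. The other set B controls had 778 and 704 CPM and the DKO libraries 424 to 959 CPM (median 566). In set C Col1a1 was 406, 686, 802, 554 and 534 CPM in controls and 872, 806, 673 and 837 CPM in DKO. The difference between sets was 0.9991 ± 0.31 for Col1a1 (adjusted p = 0.083, edgeR) and 1.83 ± 0.49 for Col11a1 (adjusted p = 0.055). These were 0.64 and 0.90 without control replicate 1. The same library held 223 CPM of adrenal gland markers and 215 CPM of Lox, the enzyme that crosslinks collagen, against 40.5 to 72.7 CPM in the other controls. The part of that library's makeup was not tested.

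**Figure D5:**
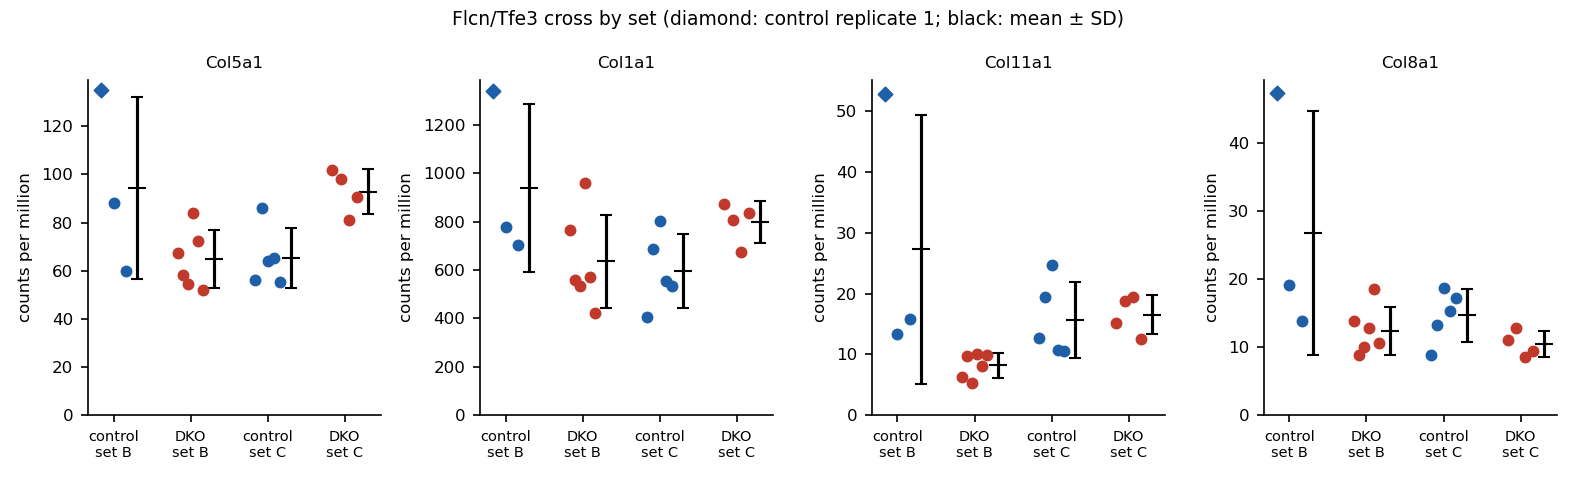
Levels of Col5a1, Col1a1, Col11a1 and Col8a1 in CPM in the Flcn/Tfe3 cross by set (points: libraries, diamond: control replicate 1, black: mean and SD). Control replicate 1 is the highest library in each panel, and in set C the Col5a1 values of DKO (80.9 to 102 CPM) exceed those of all but 1 control.

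Differences between crosses were tested for the same genes. For Flcn/Tfeb DKO less Flcn KO, 0 of 34 collagens were called (0.0153% of 13049 genes; DESeq2 0) and 3 had an unadjusted p under 0.05 (5.95% of genes). Col4a5 had -0.99 ± 0.24 (adjusted p = 0.45, edgeR), Col23a1 0.81 ± 0.24 and Col27a1 0.67 ± 0.24. For Flcn/Tfe3 DKO less Flcn KO, 0 of 34 were called (0% of 13209 genes; DESeq2 0) and 2 had an unadjusted p under 0.05 (7.4% of genes). These were Col11a1 at -1.14 ± 0.48, or -0.60 without control_Flcn_Tfe3 replicate 1, and Col14a1 at 0.37 ± 0.18. With set C as the only Flcn/Tfe3 table, 2 of 32 collagens were called, beside 459 of 12826 genes. Both were more positive in the Flcn/Tfe3 cross, Col5a1 by 0.81 (adjusted p = 0.0332, edgeR) and Col4a2 by 0.79 (adjusted p = 0.0478). Depth and genotype cannot be told apart in set C, and the Flcn KO difference of Col4a2 was smaller without controls 4 and 5. With set B in place of set C 0 of 35 were called, beside 0 of 13500 genes (1 at an unadjusted p under 0.05, beside 3.25% of genes).

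For Flcn/Tfe3 DKO less Flcn/Tfeb DKO, 0 of 36 collagens were called (0.022% of 13637 genes) and 10 had an unadjusted p under 0.05 (12.2% of genes), 7 of them higher. In the left-out fits Col6a2 ranged from 0.43 to 1.18 and Col4a2 from -0.049 to 1.15, both lowest without control_Flcn_Tfeb replicate 3. Above 0 were 6 of 6 endothelial (median 0.37), 5 of 6 podocyte (0.44) and 2 of 6 stromal markers (-0.17), whose part was not tested. Col4a5 differed by 1.04 ± 0.24 (adjusted p = 0.20, edgeR), and it was the 1 collagen among the 14 genes that DESeq2 called. In the Flcn/Tfe3 cross itself Col4a5 was near equal, at 28.6 ± 8.15 and 29.2 ± 2.31 CPM in set B and 31.9 ± 3.98 and 30.4 ± 5.65 CPM in set C (-0.018 ± 0.12, and -0.11 to 0.059 with each library left out). The crosses lie in different tables, which cannot be told apart from genotype.

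The genes that fold, process, bind or assemble with collagen were read beside it. Of 74 such partner genes, 61, 63 and 63 were tested in the Flcn KO, Flcn/Tfeb DKO and Flcn/Tfe3 DKO comparisons and 0 were called in any (edgeR). At an unadjusted p under 0.05 there were 12, 4 and 3, of which 12, 4 and 2 were lower in the knockout. These are 19.7%, 6.35% and 4.76% of the partner genes tested, beside 9.07%, 5.07% and 7.15% of all genes. Medians were -0.086, -0.14 and -0.0028. Controls 4 and 5 of the Flcn cross, which stood apart in quality, are included, and no partner count without them is given here.

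Lama1, a laminin chain of basement membranes, was 66.7, 62.7, 65.3, 67.6 and 76.0 CPM in control_Flcn and 59.3, 49.9, 55.2, 32.6 and 46.7 CPM in Flcn KO, with the groups apart (-0.47 ± 0.14; adjusted p = 0.22, edgeR). In the Flcn cross the groups did not overlap for 2 of the 61 partner genes tested, beside 2.38% of all genes. Fbn2, a fibrillin of microfibrils, was -0.46 ± 0.14 in that cross (adjusted p = 0.27, edgeR). Its controls had 80.5, 74.1, 77.5, 107 and 115 CPM and the Flcn KO libraries 63.1, 56.8, 58.5, 78.4 and 76.6 CPM. Controls 4 and 5 were again the highest, and the difference was -0.39 without control 4 and -0.36 without control 5. In the Flcn/Tfeb cross Hspg2, the proteoglycan perlecan, was -1.03 ± 0.37, or -0.33 without control replicate 3, and Pcolce, an enhancer of procollagen cleavage, -0.41 ± 0.17 (adjusted p = 0.80 for both). In the Flcn/Tfe3 cross Lox was -0.43 ± 0.19 (adjusted p = 0.60, edgeR), or -0.020 without control replicate 1, and Lama2, another laminin chain, 0.23 ± 0.11 (adjusted p = 0.63). Lama2 overlapped in set B, at 17.3 to 19.6 CPM in controls and 17.2 to 22.9 CPM in DKO. In set C its groups were apart, at 20.9 to 26.3 and 30.07 to 32.85 CPM, where depth and genotype cannot be told apart.

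The remaining named collagens stayed within the spread of their groups in the crosses. Col18a1 was -0.081 ± 0.11, -0.27 ± 0.21 and 0.0039 ± 0.10 in the same order of comparisons. Col16a1 was -0.27 ± 0.15, 0.035 ± 0.19 and -0.12 ± 0.12, and Col6a3 -0.045 ± 0.14, -0.077 ± 0.18 and 0.16 ± 0.13. Col13a1 was -0.15 ± 0.23, -0.28 ± 0.28 and 0.20 ± 0.20. With each library left out it ranged from -0.33 to -0.046, from -0.37 to -0.14 and from 0.11 to 0.34. Col8a2 was -0.0040 ± 0.23, -0.30 ± 0.35 and -0.016 ± 0.17, Col7a1 -0.058 ± 0.31, 0.66 ± 0.41 and -0.44 ± 0.31, and Col26a1 0.16 ± 0.19, -0.51 ± 0.33 and 0.27 ± 0.14. Several of these directions rest on 1 library. Without control replicate 3 the Flcn/Tfeb values were 0.027 for Col18a1, 0.036 for Col8a2 and 0.12 for Col26a1. In the same cross Col16a1 was -0.044 without DKO replicate 2 and Col6a3 0.0055 without DKO replicate 3. In the Flcn cross Col8a2 was 0.20 without control 5, Col6a3 0.063 without control 4 and Col7a1 0.076 without control 1. In the Flcn/Tfe3 cross Col18a1 was -0.032 without DKO replicate 4 and Col8a2 0.053 without DKO replicate 6. With a median SE of 0.15 in the Flcn and 0.29 in the Flcn/Tfeb cross, small shifts of single genes were not resolved. Col28a1 had at most 2 counts in any library and was not tested.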

How the data were processed

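Kidneys of P2 mice were sequenced as QuantSeq 3′ libraries (NovaSeq, single-end). The authors trimmed the reads (BBDuk in the study's methods, Trim Galore in the submitters' processing notes), used STAR for alignment to mm10 and HTSeq-count for the deposited raw counts per gene. The labels call the libraries biological replicates.

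Each cross was fitted on all genes with edgeR 4.0.16 (R 4.3.3), with TMM scaling, filterByExpr, the quasi-likelihood F test (two-sided) and Benjamini-Hochberg adjustment, and genes were called at an adjusted p under 0.05. The deposited table (set B or C) was a term in the Flcn/Tfe3 cross. Interactions used group means. DESeq2 1.42.0 was an alternative. CPM use TMM-scaled library sizes, class shares and ratios use summed counts, and log2 chain ratios and their correlations add 0.5 CPM. Precision follows the depth given with the levels. The fits were tested on simulated data. Members and lists were chosen with earlier results of these data known. Named were the 3 highest fibrillar genes, the 6 type IV genes, the 2 highest genes of each other class, any gene called, and the 3 with the smallest p per cross and for the set interaction. From the partner lists, the 2 genes with the smallest p per cross were named. Col27a1 and further genes with an unadjusted p under 0.05 were named after their values were seen. No replicate numbers paired the libraries.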

Additional observations from a re-analysis of the deposited data

Results flagged for a closer look

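Of 140 groups of 4 to 10 libraries looked at, 11 held a single library far from the rest of its group, and chance gives about 1 in 20 groups. Of these, 4 were control replicate 1 of the Flcn/Tfe3 cross, with Col1a1 at 1339 CPM (nearest control 802), Col8a1 at 47.3 CPM (nearest 19.1), Col5a1 at 135 CPM (nearest 88.2) and Col11a1 at 52.8 CPM (nearest 24.7). Groups of that cross pooled sets B and C here, so a difference between the tables can enter. The nearest control for Col1a1 and Col11a1 was replicate 6, of set C. In the DKO libraries of that cross, Col8a1 stood at 18.5 CPM in replicate 5 (nearest 13.7) and Col2a1 at 20.7 CPM in replicate 10 (nearest 12.95). In control_Flcn, Col14a1 was low in replicate 2 at 105 CPM (nearest 144), and Col13a1 was high in replicate 3 at 12.2 CPM (nearest 10.9). In Flcn KO, Col6a2 was high in replicate 3 at 99.0 CPM (nearest 73.3). Col28a1 was at 0.247 CPM in control_Flcn replicate 4 and at 0.794 CPM in Flcn/Tfeb DKO replicate 1, with 0 in the others of those groups, which is 1 and 2 counts. The effect on Col5a1 in the Flcn/Tfe3 cross differed between sets C and B by 1.08 on the log2 scale in the interaction test.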

How the results depend on the processing

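The count of called collagens was 0 in each of the 3 crosses under every alternative run. With the replicate block it was 0, 0 and 0 as well, and all-gene calls were 48, 0 and 2 in place of 62, 0 and 48. Same-numbered libraries had correlations of -0.34 to 0.32, so the numbers name the libraries only. The fibrillar to type IV difference moved by less than 1 SD under each alternative, and ranged from -0.064 to 0.024, 0.12 to 0.55 and -0.23 to -0.024 with each library left out in the 3 crosses. For Flcn/Tfe3 DKO less Flcn KO, set C alone gave 2 calls (459 genes in all). For Flcn/Tfe3 DKO less Flcn/Tfeb DKO, DESeq2 gave 1 (14 genes in all) and left-out libraries 0 to 1, with the 1 without control_Flcn_Tfeb replicate 2 (82 genes in all, against 3). Between sets C and B, 1 collagen was called among 162 genes, against 3 of 812 by DESeq2, 3 of 398 with no filter on low counts, 0 of 112 with a mean of at least 10 counts, 0 of 0 with Xist as a covariate, and 0 to 6 with each library left out (6 of 1690 without control replicate 6, 4 of 901 without DKO replicate 4, 2 of 224 without control replicate 2, 2 of 339 without DKO replicate 2, and 0 without any 1 of the other 14, where 0 to 134 genes were called). The settings chosen after seeing the data gave 2 of 643 without libraries over 50 CPM of adrenal gland markers and 0 of 0 without those of skeletal muscle markers. The Col5a1 difference between sets was 0.71 to 1.31 with each library left out and lost its call in 18 alternatives. The Col11a1 change in the Flcn/Tfe3 cross reversed to 0.069 in set C alone and to 0.0023 without libraries that hold adrenal gland markers. The cause was not tested. Without the controls under 12% of reads on no feature, also chosen after seeing the data, the ratio difference of the Flcn cross was -0.065. Depth limits the genes under 1 CPM.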
